A study of Mus musculus with 12 samples.

Results

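Pdcd5 was knocked down with siRNA in C22 cells that received no TGF-β1, and RNA was measured by QuantSeq 3′ sequencing (reads from transcript ends) in 3 knockdown libraries (siPdcd5) and 3 negative control libraries (NC). The 6 libraries were chosen by their labels from 12, the other 6 being the same groups with 20 ng/ml TGF-β1 for 24 h. The comparison asked which genes respond to the loss of Pdcd5 before the growth factor is given, and it was made over 12425 genes with enough counts among 23282 gene symbols. C22 is a conditionally immortalized line of mouse club cells that carries a temperature-sensitive SV40 large T antigen and was starved of serum before treatment. All libraries come from this one clone, the siRNA duplex used is not stated among several listed, and no label says that replicates were separate cultures, so the p-values may measure technical spread.

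Club cells are secretory cells of the small airways that make secretoglobins, detoxify foreign compounds and renew the airway lining. PDCD5 is a small, widely expressed protein known for its part in apoptosis, where it binds the acetyltransferase Tip60 (Kat5) and p53, and for binding the chaperonin CCT, which folds actin and tubulin. TGF-β and the related BMP and activin ligands act through receptor kinases and SMAD proteins, and their target genes include the inhibitory SMADs and the Id genes that limit the same pathway.

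The 6 libraries held between 12809857 and 17714828 counts, and 3 counts, taken as the least that a library can show, corresponded to between 0.165 and 0.230 CPM, counts scaled to a common library size. siPdcd5 replicate 1 stood apart. It lay at 23.7 on the second principal component of log2 CPM, against −17.8 and −21.1 for siPdcd5 replicates 2 and 3. Its counts differed from theirs with a chi-square per degree of freedom of 32.7 and 25.4, against 9.72 between those 2 and 4.29 to 5.98 among NC libraries. Counts of the main lists are therefore also given without it, and after each group of genes the calls that leaving out 1 library ended are named. Brackets then give the libraries whose removal did so (any, where each of the 6 did) and the highest adjusted p that resulted. Club cell markers were largely absent: Scgb1a1, Scgb3a2 and Cyp2f2 had no count in any of the 6 libraries, and 8 of 19 markers were at 0. Their summed level, mostly Aldh1a1, was 823 to 834 CPM in NC and 475 to 561 CPM in siPdcd5. Fibroblast markers, led by Col1a1, summed to 3758 to 4003 CPM in NC and 2561 to 3135 CPM in siPdcd5, with 6 of 14 above the floor of 3 counts in every library and 3 at 0. The single fibroblast markers went both ways. Of 6 tested, 3 had a log2 fold change of siPdcd5 against NC above 0 and 3 below 0, with a median of 0.12. Mesothelial markers summed to 1961 to 2063 CPM in NC and 1557 to 1632 CPM in siPdcd5. Of 6 tested, 5 had a log2 fold change below 0 and 1 above 0, with a median of −0.51. Msln, the most abundant, was not among the 2 that passed the test given below. Those were Gpm6a at −0.54 and Upk1b at −0.48, named after their values were seen. Endothelial markers stayed at 1.29 to 2.48 CPM. The defining secretoglobins of the labelled cell type were absent, and the part of these marker levels in the results was not tested. In bulk RNA, fewer cells of a type and less RNA per cell cannot be told apart.

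Pdcd5 itself lies at chr7:35641982-35647521 on the minus strand of GRCm38. It stood at 73.5, 65.8 and 65.1 CPM in the NC libraries and at 21.2, 19.9 and 22.1 CPM in the siPdcd5 libraries. The groups did not overlap, and siPdcd5 replicate 1 lay between the other two. The log2 fold change, siPdcd5 against NC throughout, was −1.69 (SE 0.10, adjusted p = 1.09e-06), where adjusted p is the Benjamini-Hochberg value of edgeR's quasi-likelihood test over all 12425 genes and a gene is called below 0.05. Without siPdcd5 replicate 1 it was −1.70, adjusted p = 8.50e-06. The nearest tested genes on either side, Ankrd27 at 2756 bases and Dpy19l3 at 37644 bases, had log2 fold changes of −0.26 (adjusted p = 0.645) and −0.15 (adjusted p = 0.598).

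Knockdown in resting cells lowered more genes than it raised. Of 12425 genes, 427 were called (3.44%), 112 higher (0.901%) and 315 lower (2.54%), while the median log2 fold change of all tested genes was 0.02 and 53.8% lay above 0. Outside a list of 131 tested matrix genes, 109 were higher and 283 lower, with the targeted Pdcd5 counted among the lower. Within the matrix list, 32 were lower and 3 were higher, Sdc1, Dcn and Col1a2, named after their values were seen. In all 427 called genes the 3 siPdcd5 libraries lay on one side of the 3 NC libraries, as did 2866 tested genes in all (23.1%). Most changes were modest, with 32 genes called beyond 1 and 86 beyond −1 on the log2 scale. All 427 genes had the same sign without siPdcd5 replicate 1 and 268 were called, and 148 (25 higher, 123 lower) were called with each of the 6 libraries left out in turn. Counting by strand is not stated, so counts of genes that share exon bases with an antisense gene are uncertain. Beside the pairs named below, this holds among the genes chosen by rule for 1810011O10Rik, Actn1, Adgrg6, Ahr, Bmp4, Ccnd2, Cct7, Cd34, Cd55, Cftr, Chsy1, Clca3a1, Crim1, Cyp51, Ddr1, Fam84b, Ftl1, Fzd5, Gbp2, Gm4070, Gpr39 and Has2. It also holds for Hdac7, Hexa, Hsp90b1, Jund, Kcnab1, Ltbp2, Ncor1, Notch1, Nrarp, Pcdh19, Pcdh7, Plekhg4, Prss23, Ptgis, Rasal2, Rcn3, Sec63, Snhg3, Srpk2, Tef and Wnt5a. Exon bases are shared with a gene on the same strand by Anxa3, D630045J12Rik, Etfb, Ftl1, Gm4070, Hsp90b1, Itga1, Maml2, Ncl, Neat1, Scd2, Snhg3 and Tnrc6a. A call is said to hold in all 13 alternatives where it passed under other scaling, count filters, tests and fits and with each of the 6 libraries left out. A minimum log2 fold change of 1, which removes smaller changes by construction, is not among the 13. The functions below are given as lists of genes with a common role, and each count is to be read against the 0.901% and 2.54% of all genes.

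**Figure D1:**
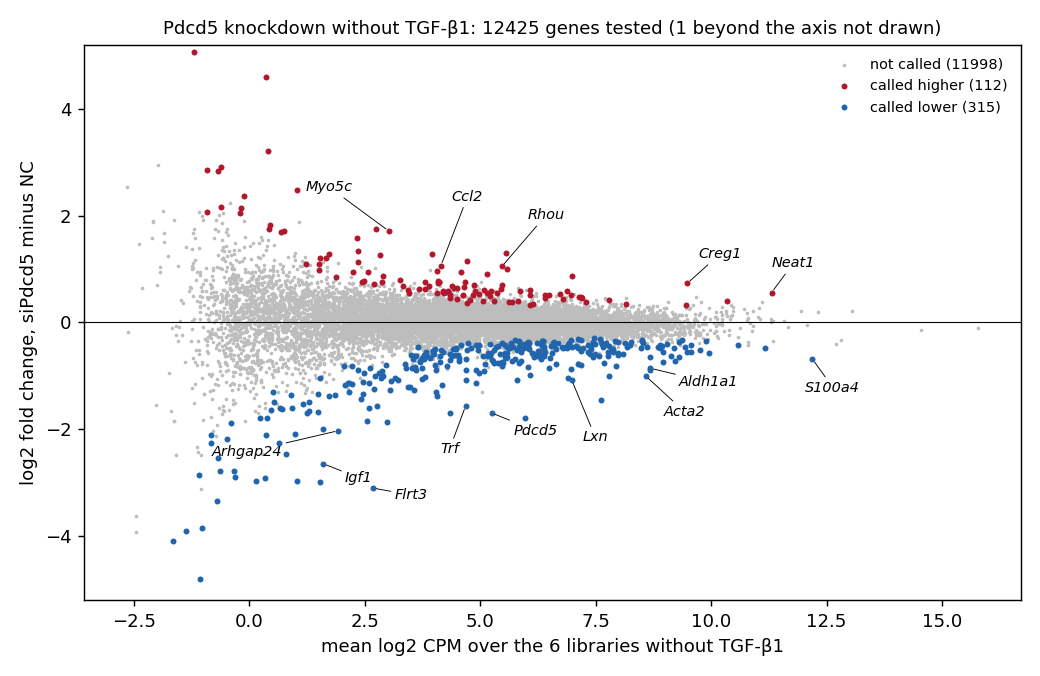
Each point is 1 of 12425 tested genes, with the mean log2 CPM over the 6 libraries without TGF-β1 on the x axis and the log2 fold change of siPdcd5 against NC on the y axis. Red points are the 112 genes called higher, blue points the 315 called lower and grey points genes not called, and the median of the mean log2 CPM was 4.32 for the rises and 5.48 for the falls.

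Several genes of TGF-β, BMP and activin signalling were lower. Of 42 tested members of this list, 9 were lower and 0 higher by edgeR (DESeq2 called 9 lower and 0 higher, and 14 had an unadjusted p under 0.05), with a median of −0.10 (−0.13 without siPdcd5 replicate 1). The members called were ligands (Bmp4, Inhba), latent TGF-β binding proteins (Ltbp2, Ltbp4), a follistatin-like protein (Fstl1), the inhibitory SMADs (Smad6, Smad7) and the Id genes, which encode dominant-negative helix-loop-helix factors (Id1, Id2). Ligands, binding proteins and feedback inhibitors of the pathway were lower in the same libraries.

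Bmp4 stood at 509, 539 and 504 CPM in NC and at 268, 376 and 347 CPM in siPdcd5, a log2 fold change of −0.65 (SE 0.15, adjusted p = 0.0294). Inhba, the subunit of activin A, stood at 42.3, 48.2 and 45.3 CPM and 22.2, 33.6 and 31.9 CPM, a change of −0.63 (adjusted p = 0.0267). In both genes siPdcd5 replicate 1 was the lowest library and the groups did not overlap. Ltbp4, which anchors latent TGF-β in the matrix, had 16.4, 16.5 and 16.3 CPM in NC and 7.89, 9.64 and 8.94 CPM in siPdcd5, a change of −0.89 (SE 0.13, adjusted p = 0.00163). Ltbp2 was near the limit of detection, with 4, 11 and 15 counts in NC and 1, 0 and 1 counts in siPdcd5 (adjusted p = 0.0475). Id2 fell from 137, 124 and 133 CPM to 79.2, 67.99 and 82.2 CPM, a change of −0.78 (SE 0.14, adjusted p = 0.00777), and Smad6 from 15.4, 18.2 and 16.6 CPM to 10.7, 11.2 and 9.72 CPM, a change of −0.67 (adjusted p = 0.0122). The 3 libraries of each group were close together in Id2 and Ltbp4, whose calls held in all 13 alternatives. Smad7, Fstl1 and Id1, named after their values were seen, at −0.45, −0.46 and −0.49, also passed the test (adjusted p = 0.0492, 0.0197 and 0.0259). With siPdcd5 replicate 1 left out, 3 members were called, and between 2 and 7 with any one library left out. Leaving out 1 library ended the call of Bmp4 (NC 1, 2 or 3 or siPdcd5 1 or 3, adjusted p 0.125), Inhba (NC 1, 2 or 3 or siPdcd5 1 or 3, adjusted p 0.128), Ltbp2 (NC 2 or 3 or siPdcd5 1, 2 or 3, adjusted p 0.180) and Smad6 (NC 2 or siPdcd5 3, adjusted p 0.0732). Calls that a single library ended were those of Smad7 (any, adjusted p 0.194), Fstl1 (NC 1, 2 or 3 or siPdcd5 1, adjusted p 0.0799) and Id1 (NC 1, 2 or 3 or siPdcd5 1 or 3, adjusted p 0.138).

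**Figure D2:**
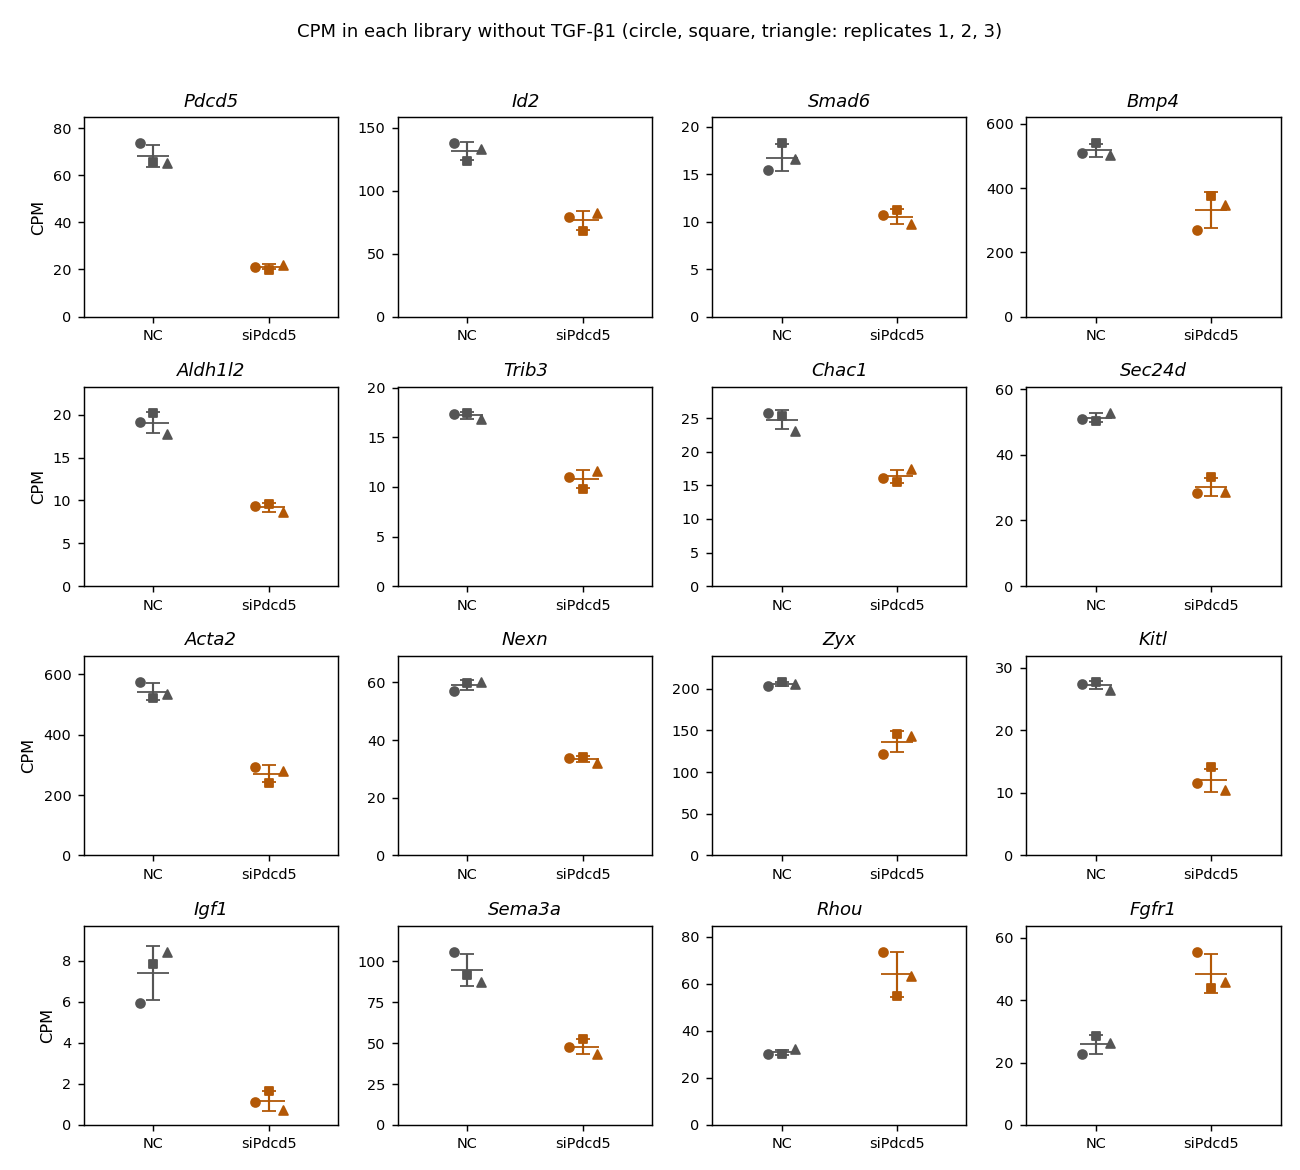
Level in CPM of 16 genes in each library without TGF-β1, NC in grey and siPdcd5 in orange, with a circle, square and triangle for replicates 1, 2 and 3 and a bar with whiskers for the mean ± SD of the 3 libraries. Each gene's groups are separate: 14 genes lie lower in siPdcd5, as Igf1 at 0.708 to 1.65 CPM against 5.93 to 8.44 CPM in NC, and Rhou and Fgfr1 lie higher.

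Some genes of amino acid synthesis and other targets of ATF4, the transcription factor of the integrated stress response, were lower as well. Of 30 tested members, 6 were lower and 0 higher by edgeR (8 lower and 0 higher by DESeq2, 13 with an unadjusted p under 0.05), with a median of −0.20 (−0.23 without siPdcd5 replicate 1). They were Aldh1l2, a mitochondrial folate enzyme, Vldlr, a lipoprotein receptor, Trib3, a pseudokinase, Chac1, which degrades glutathione, Asns, which makes asparagine, and Phgdh, the first enzyme of serine synthesis. All 6 were also called without siPdcd5 replicate 1. Bcat1, which starts the breakdown of branched-chain amino acids, and Pck2, both named after their values were seen, were lower too, at −1.78 and −0.56 (adjusted p = 0.00186 and 0.00344).

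Aldh1l2 stood at 19.1, 20.2 and 17.8 CPM in NC and 9.37, 9.59 and 8.62 CPM in siPdcd5, a log2 fold change of −1.05 (SE 0.12, adjusted p = 2.59e-04). Its exons overlap those of D10Wsu102e on the other strand, and strand use in counting is not stated. Vldlr stood at 8.82, 8.82 and 10.1 CPM and 4.35, 5.01 and 4.38 CPM, a change of −1.01 (SE 0.15, adjusted p = 0.00199), and Trib3 at 17.3, 17.5 and 16.9 CPM and 10.99, 9.81 and 11.6 CPM, a change of −0.68 (SE 0.10, adjusted p = 0.00224). In these genes the spread within a group was small beside the distance between groups. Chac1 stood at 25.8, 25.4 and 23.2 CPM and 16.1, 15.5 and 17.4 CPM, a change of −0.60 (SE 0.10, adjusted p = 0.00294), Asns changed by −0.59 (adjusted p = 0.00224) and Phgdh by −0.39 (adjusted p = 0.0249). The calls of Aldh1l2, Vldlr, Trib3, Chac1 and Asns held in all 13 alternatives, and that of Phgdh was lost without NC replicate 2 or 3 or siPdcd5 replicate 2 or 3 (adjusted p up to 0.140).

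ATF4 targets often carry a composite C/EBP and ATF element before their start, and one form of it, TTGCATCA, was searched on both strands in the 250 bases before the RefSeq start, here in GRCm38.p6. It was in 24% of the 25 list genes with a window (6 genes), in 1.75% of the genes called lower, in 0 of 84 called higher and in 0.688% of all 9443 tested genes with a window. Of the 6 genes, Chac1 and Vldlr were called lower, while Slc7a11, Nupr1, Pycr1 and Got1 were not called. The windows of Chac1 and Vldlr are shown beside that of Got1, a transaminase not called at 0.07 (adjusted p = 0.879), with the element in capitals, since the same letters stood before a gene that fell and one that did not pass the test. The Vldlr window precedes a RefSeq start but lies inside the gene as annotated by GENCODE, which begins at chr19:27216484.
Chac1 (chr2:119350992-119351241, plus strand): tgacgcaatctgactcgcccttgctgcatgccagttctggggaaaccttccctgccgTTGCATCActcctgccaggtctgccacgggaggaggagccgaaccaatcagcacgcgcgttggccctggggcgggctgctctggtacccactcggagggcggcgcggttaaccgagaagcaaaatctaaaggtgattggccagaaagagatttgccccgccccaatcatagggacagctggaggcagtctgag
Vldlr (chr19:27216770-27217019, plus strand): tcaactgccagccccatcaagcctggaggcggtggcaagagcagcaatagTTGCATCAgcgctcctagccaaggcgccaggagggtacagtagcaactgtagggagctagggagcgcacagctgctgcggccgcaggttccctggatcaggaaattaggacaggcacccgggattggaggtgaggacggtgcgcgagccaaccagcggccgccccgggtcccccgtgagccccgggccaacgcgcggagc
Got1 (chr19:43524606-43524855, minus strand): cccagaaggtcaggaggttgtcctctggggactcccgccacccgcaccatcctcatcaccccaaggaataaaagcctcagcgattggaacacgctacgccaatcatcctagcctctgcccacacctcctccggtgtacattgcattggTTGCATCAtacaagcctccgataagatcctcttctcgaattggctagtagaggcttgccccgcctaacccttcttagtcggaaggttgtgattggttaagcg

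Genes of the secretory pathway were lower in a few members. Of 25 tested members of the unfolded protein response and the chaperones of the endoplasmic reticulum (ER), 4 were lower and 0 higher, with a median of −0.15 (−0.22 without siPdcd5 replicate 1). Of 40 tested genes of ER to Golgi transport, 5 were lower and 0 higher, with a median of −0.17 (−0.21 without siPdcd5 replicate 1) and 35 of the 40 below 0. DESeq2 called 7 and 8 of them lower and 0 higher in either list, and 10 and 18 had an unadjusted p under 0.05.

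The chaperones lowered were Calr, the calcium-binding lectin calreticulin, at 1819, 1674 and 1806 CPM in NC and 1245, 1330.0 and 1380.0 CPM in siPdcd5, and Hsp90b1, the ER form of HSP90, at 835, 911 and 904 CPM and 670.1, 697 and 600.2 CPM. Their log2 fold changes were −0.42 (adjusted p = 0.0333) and −0.43 (adjusted p = 0.0264). Dnajc3, an ER co-chaperone, changed by −0.44 (adjusted p = 0.0117), and Herpud1, which serves ER-associated degradation, by −0.38 (adjusted p = 0.0332). In transport, Sec24d, a cargo adaptor of the COPII coat, stood at 50.8, 50.3 and 52.8 CPM and 28.5, 33.3 and 28.7 CPM, a change of −0.76 (SE 0.12, adjusted p = 0.00283), and was called in all 13 alternatives. The membrane-bound transcription factors Creb3l1 and Creb3 changed by −0.52 (adjusted p = 0.0140) and −0.38 (adjusted p = 0.0140). Sec63, of the translocation channel, and Srp54a, of the signal recognition particle, changed by −0.30 (adjusted p = 0.0424) and −0.39 (adjusted p = 0.0473). Creb3 shares exon bases with the opposite-strand gene Gba2, and Srp54a has a near copy, Srp54b, so these 2 counts are uncertain. Gba2 and Srp54b, named after their values were seen, were called lower too, each at −0.47. In each list 3 members were called without siPdcd5 replicate 1. The call was lost with 1 library left out for Calr (any, adjusted p 0.127), Hsp90b1 (NC 1, 2 or 3 or siPdcd5 3, adjusted p 0.125), Dnajc3 (NC 1 or siPdcd5 3, adjusted p 0.0630) and Herpud1 (NC 1, 2 or 3 or siPdcd5 2 or 3, adjusted p 0.139). Single left-out libraries ended the calls of Creb3l1 (NC 2 or 3 or siPdcd5 2, adjusted p 0.0710), Creb3 (NC 1 or 3 or siPdcd5 3, adjusted p 0.0789), Sec63 (any, adjusted p 0.180) and Srp54a (any, adjusted p 0.202).

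Several contractile genes were lower. Of 36 tested smooth muscle and contractile genes, 7 were lower and 0 higher by edgeR (10 lower and 0 higher by DESeq2, 14 with an unadjusted p under 0.05), with a median of −0.18 (−0.19 without siPdcd5 replicate 1). Acta2, smooth muscle α-actin, was at 574, 521 and 535 CPM in NC and 294, 241 and 279 CPM in siPdcd5, a log2 fold change of −1.0005 (SE 0.09, adjusted p = 2.68e-05). Nexn, the actin-binding protein nexilin, was at 57.1, 59.97 and 60.1 CPM and 33.9, 34.2 and 32.2 CPM, a change of −0.82 (SE 0.09, adjusted p = 1.64e-04). In both genes the groups were far apart for their spread, and both calls held in all 13 alternatives, as did those of Myh10, non-muscle myosin IIB, at −0.54 (adjusted p = 0.00336) and Cnn2, calponin 2, at −0.50 (adjusted p = 0.00400). Pdlim5, Actn1 and Tpm1, a PDZ-LIM protein, α-actinin 1 and a tropomyosin, changed by −0.72 (adjusted p = 0.0264), −0.41 (adjusted p = 0.0341) and −0.35 (adjusted p = 0.0249). Nexn shares exon bases with Gm43185 on the same strand, so its count is uncertain. The list had 6 called members without siPdcd5 replicate 1, and between 4 and 6 with any library left out. Sensitive to 1 library were the calls of Pdlim5 (NC 1, 2 or 3 or siPdcd5 2 or 3, adjusted p 0.121), Actn1 (NC 1, 2 or 3 or siPdcd5 1 or 3, adjusted p 0.146) and Tpm1 (NC 1, 2 or 3 or siPdcd5 2 or 3, adjusted p 0.105).

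Many contractile genes are bound by serum response factor at a CArG box. Its strict form, CCWWWWWWGG with W for A or T, was searched in the same windows, and forms with a mismatch were not. It was in 5 of 27 list genes with a window (18.5%), in 2.19% of genes called lower, in 1.19% of genes called higher and in 1.4% of tested genes. Of the 5, Cnn2 was called lower and Acta1, Myl6, Ldb3 and Srf were not called. Another motif, GTCTAGAC, was searched for the TGF-β, BMP and activin list. It was in 0 of 29 list genes with a window, 0 of 228 called lower, 0 of 84 called higher and 0.233% of tested genes. The window of Cnn2, with 1 copy, is shown beside that of Srf, with 2 copies, which encodes the factor itself and had a log2 fold change of 0.05 (adjusted p = 0.947). Capitals mark the CArG boxes of this strict form only.
Cnn2 (chr10:79988350-79988599, plus strand): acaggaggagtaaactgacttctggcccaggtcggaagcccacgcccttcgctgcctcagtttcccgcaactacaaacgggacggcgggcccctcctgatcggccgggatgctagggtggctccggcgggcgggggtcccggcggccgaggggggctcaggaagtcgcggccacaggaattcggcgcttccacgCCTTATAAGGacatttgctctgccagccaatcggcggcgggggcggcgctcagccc
Srf (chr17:46556163-46556412, minus strand): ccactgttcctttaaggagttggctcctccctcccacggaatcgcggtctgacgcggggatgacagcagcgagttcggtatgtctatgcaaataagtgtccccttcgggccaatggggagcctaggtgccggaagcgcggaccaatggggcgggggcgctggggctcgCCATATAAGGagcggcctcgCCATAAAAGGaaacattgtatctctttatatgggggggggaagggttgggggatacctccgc

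Regulators of the actin cytoskeleton were called in both directions. Of 57 tested, 9 were lower and 2 higher (10 lower and 3 higher by DESeq2). Rhou, an atypical small GTPase, rose from 30.2, 30.2 and 32.1 CPM in NC to 73.6, 54.8 and 63.4 CPM in siPdcd5, a log2 fold change of 1.05 (SE 0.12, adjusted p = 2.41e-04), and Enah, which lengthens actin filaments, changed by 0.53 (SE 0.08, adjusted p = 0.00199). Arhgap24, a Rac GTPase-activating protein, was at 7.14, 7.63 and 7.37 CPM and 2.14, 1.82 and 1.48 CPM, a change of −2.03 (SE 0.26, adjusted p = 7.32e-04). These 3 calls held in all 13 alternatives. Ezr, ezrin, which ties actin to the membrane, was at 962, 912 and 889.7 CPM and 552, 611 and 711 CPM, a change of −0.56 (adjusted p = 0.00594), with its exons overlapping Sytl3 on the other strand. Fscn1, the actin bundler fascin, changed by −0.65 (adjusted p = 0.0105) and Cdc42ep5 by −1.35 (adjusted p = 0.0356). The other 5 called lower, named for completeness after their values were seen, were Rock2, Vasp, Marcks, Arhgap29 and Arhgdib, between −0.46 and −0.33. Without siPdcd5 replicate 1, 2 higher and 5 lower members were called. Not called with 1 library left out were Fscn1 (NC 2, adjusted p 0.0511), Cdc42ep5 (any, adjusted p 0.151) and Rock2 (NC 1, 2 or 3 or siPdcd5 1 or 3, adjusted p 0.0985). Leaving out 1 library ended the call of Vasp (NC 2 or 3 or siPdcd5 1 or 3, adjusted p 0.146), Marcks (NC 2 or siPdcd5 3, adjusted p 0.0925) and Arhgdib (any, adjusted p 0.108).

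Some adhesion genes were lower. Of 40 tested integrins and focal adhesion genes, 5 were lower and 0 higher by edgeR (9 lower and 1 higher by DESeq2, 16 with an unadjusted p under 0.05). Zyx, zyxin, a mechanosensor of focal adhesions, was at 203, 208 and 206 CPM in NC and 122, 145 and 143 CPM in siPdcd5, a log2 fold change of −0.59 (SE 0.09, adjusted p = 0.00224), and Cav1, caveolin 1, at 186, 197 and 191 CPM and 111, 118 and 101 CPM, a change of −0.80 (SE 0.13, adjusted p = 0.00300). Both calls held in all 13 alternatives. Zyx shares exon bases with Epha1 on the other strand. Tns1, tensin 1, and the integrin chains Itga3 and Itga1 changed by −0.50 (adjusted p = 0.0127), −0.53 (adjusted p = 0.0424) and −1.66 (adjusted p = 0.0273). Calls that a single library ended were those of Tns1 (NC 2 or 3, adjusted p 0.0617), Itga3 (any, adjusted p 0.161) and Itga1 (NC 2 or 3 or siPdcd5 1, 2 or 3, adjusted p 0.141). Of 21 tested adhesion molecules of immunoglobulin-like and neural type, 5 were lower and 0 higher by edgeR (7 and 0 by DESeq2, 11 with an unadjusted p under 0.05). Flrt3, a fibronectin-leucine-rich transmembrane protein that binds unc-5 and latrophilin receptors, was at 17.7, 19.4 and 18.1 CPM and 1.92, 2.75 and 1.67 CPM, a change of −3.10 (SE 0.24, adjusted p = 1.23e-05). Its relative Flrt2 changed by −0.40 (adjusted p = 0.0161), the adhesion receptor Adgrg6 by −1.34 (SE 0.21, adjusted p = 0.00224), Alcam by −0.63 (SE 0.08, adjusted p = 4.84e-04) and Cadm1 by −0.42 (adjusted p = 0.0445). The calls of Adgrg6 and Alcam held in all 13 alternatives and that of Flrt3 in the 12 that could be fitted. The call was lost with 1 library left out for Flrt2 (NC 1, 2 or 3 or siPdcd5 2 or 3, adjusted p 0.0846) and Cadm1 (any, adjusted p 0.161). Without siPdcd5 replicate 1, 3 and 4 members of these 2 lists were called.

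**Figure D3:**
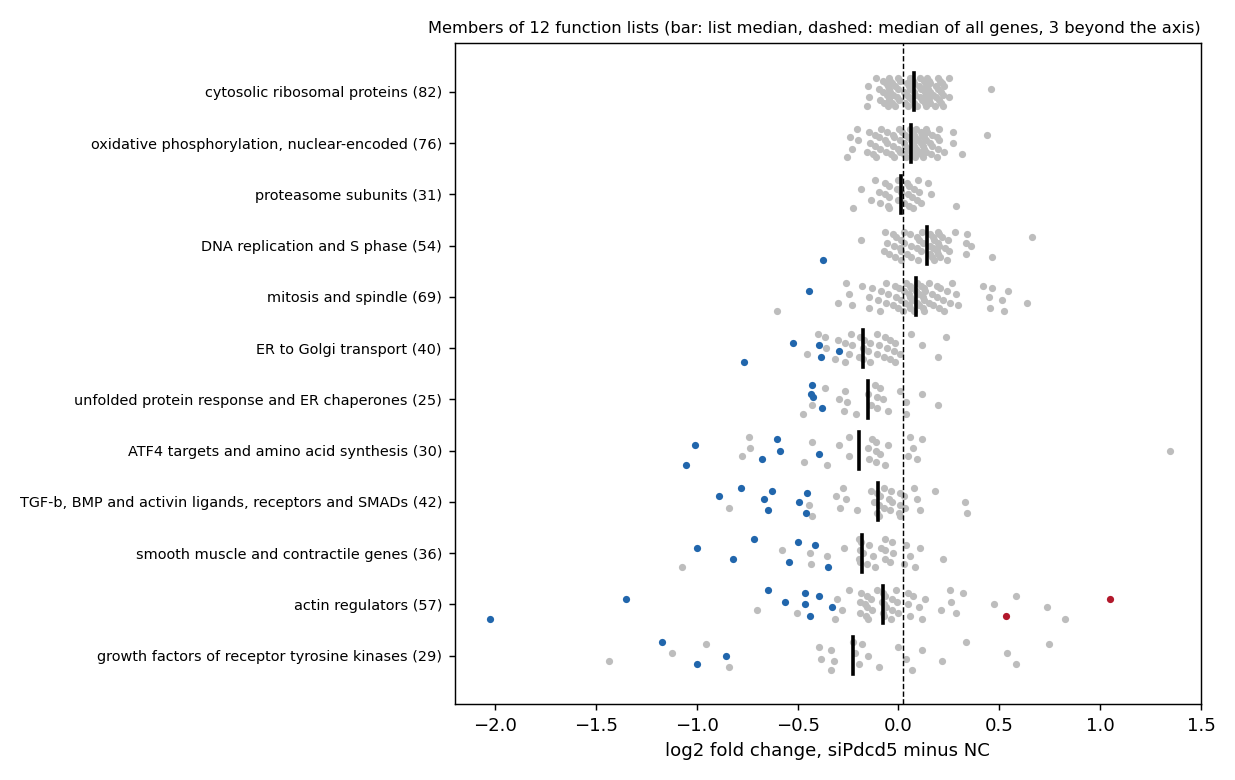
Log2 fold change of siPdcd5 against NC for every tested member of 12 function lists, 1 point a gene, with the number tested in brackets, blue for called lower, red for called higher and grey for not called. The black bar is each list's median and the dashed line that of all tested genes, and the medians of ER to Golgi transport (−0.17), ATF4 targets (−0.20) and contractile genes (−0.18) lie left of it while DNA replication (0.14) lies right of it.

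Some secreted growth factors that act on receptor tyrosine kinases were lower. Of 29 tested, 4 were lower and 0 higher by edgeR (6 lower and 0 higher by DESeq2, 12 with an unadjusted p under 0.05), with a median of −0.22 (−0.28 without siPdcd5 replicate 1), and 4 were lower without siPdcd5 replicate 1. Igf1, insulin-like growth factor 1, was at 5.93, 7.86 and 8.44 CPM in NC and 1.11, 1.65 and 0.708 CPM in siPdcd5, a log2 fold change of −2.64 (SE 0.22, adjusted p = 1.89e-05). Kitl, the ligand of Kit, was at 27.4, 27.6 and 26.5 CPM and 11.6, 14.1 and 10.4 CPM, a change of −1.17 (SE 0.14, adjusted p = 2.99e-04). Fgf18 was at 111, 129 and 125 CPM and 57.5, 81.5 and 62.4 CPM, a change of −0.86 (SE 0.13, adjusted p = 0.00224), and Vegfc, which drives lymphatic growth, at 10.1, 10.9 and 10.2 CPM and 4.43, 5.01 and 6.11 CPM, a change of −1.001 (SE 0.15, adjusted p = 0.00210). No siPdcd5 library reached the lowest NC library in any of the 4 genes, and the 4 calls held in all 13 alternatives.

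The receptors moved both ways. Of 22 tested receptor tyrosine kinases, 2 were higher and 3 lower, also without siPdcd5 replicate 1. Fgfr1, a receptor of fibroblast growth factors, rose from 22.6, 28.5 and 26.4 CPM to 55.5, 43.8 and 45.9 CPM, a log2 fold change of 0.90 (SE 0.13, adjusted p = 0.00193), though its exons overlap Gm16159 on the other strand. Tyro3, which binds Gas6, changed by 0.54 (adjusted p = 0.0259). Ddr1, a collagen receptor, was at 716, 686 and 677 CPM and 441, 475 and 430.5 CPM, a change of −0.63 (SE 0.11, adjusted p = 0.00476), Egfr changed by −0.57 (SE 0.09, adjusted p = 0.00271) and Igf1r by −0.45 (adjusted p = 0.0134). Igfbp7, a secreted protein of the insulin-like growth factor binding family, changed by −0.61 (adjusted p = 0.0404), with exon bases shared with Polr2b on the other strand. Polr2b, named after its value was seen, was called lower too at −0.55, and the 2 cannot be told apart without strand. Rasal2, a Ras GTPase-activating protein, was the one member lowered of 36 in ERK feedback, at −0.50 (adjusted p = 0.0140). The calls of Fgfr1, Ddr1 and Egfr held in all 13 alternatives. Single left-out libraries ended the calls of Tyro3 (NC 1, 2 or 3 or siPdcd5 2 or 3, adjusted p 0.125), Igf1r (NC 2 or 3 or siPdcd5 3, adjusted p 0.0771), Igfbp7 (NC 1, 2 or 3 or siPdcd5 2 or 3, adjusted p 0.166) and Rasal2 (NC 1, 2 or 3 or siPdcd5 3, adjusted p 0.0727).

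Some guidance and patterning genes were lower, the ligands Slit2 and Sema3a among them. The share called lower was 4.35% in the axon guidance list, 11.4% in the Wnt list and 12.1% in the YAP list, against 2.54% of all tested genes. The axon guidance share, 2 genes of 46, is near that of all genes, so no more is read from it. Slit2, the ligand of Robo receptors, was at 14.8, 15.3 and 14.2 CPM in NC and 4.43, 4.46 and 3.28 CPM in siPdcd5, a log2 fold change of −1.86 (SE 0.17, adjusted p = 2.84e-05). Sema3a, a semaphorin that binds neuropilin, was at 106, 91.5 and 87.5 CPM and 47.6, 52.3 and 43.5 CPM, a change of −0.99 (SE 0.10, adjusted p = 8.85e-05). These were the 2 members called of 46 tested axon guidance genes (both lower, 0 higher, and 8 with an unadjusted p under 0.05), and both calls held in all 13 alternatives. Of 35 tested Wnt genes, 4 were lower and 0 higher by edgeR and by DESeq2 (10 with an unadjusted p under 0.05). They were the ligand Wnt5a at −0.70 (adjusted p = 0.0250), Wls, which carries Wnt proteins to the surface, at −0.45 (adjusted p = 0.0127), the receptor Fzd5 at −0.69 (adjusted p = 0.0368) and the secreted antagonist Sfrp4 at −1.11 (SE 0.20, adjusted p = 0.00548). Of 33 tested genes of YAP and TAZ, the co-activators of the Hippo pathway, 4 were lower and 0 higher by edgeR (9 and 0 by DESeq2, 15 with an unadjusted p under 0.05), with a median of −0.25 (−0.23 without siPdcd5 replicate 1). Wwtr1, which encodes TAZ, was at 256, 266 and 253 CPM and 179.8, 189 and 198 CPM, a change of −0.45 (SE 0.08, adjusted p = 0.00413), and Crim1 at 219.6, 235 and 208 CPM and 142, 164 and 134 CPM, a change of −0.59 (SE 0.10, adjusted p = 0.00300). Ajuba and Dlc1 changed by −0.37 (adjusted p = 0.0356) and −0.42 (adjusted p = 0.0449). Of these lists, 4 Wnt and 3 YAP genes were called without siPdcd5 replicate 1. The calls of Sfrp4, Wwtr1 and Crim1 held in all 13 alternatives. Sensitive to 1 library were the calls of Wnt5a (NC 2 or 3 or siPdcd5 3, adjusted p 0.117), Wls (NC 1 or 3 or siPdcd5 3, adjusted p 0.0679), Fzd5 (any, adjusted p 0.179), Ajuba (NC 1, 2 or 3 or siPdcd5 1 or 2, adjusted p 0.174) and Dlc1 (any, adjusted p 0.187).

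Notch genes were called in both directions, 3 higher and 3 lower of 22 tested. Jag1, a ligand, fell from 38.8, 48.9 and 48.2 CPM to 30.2, 27.3 and 21.7 CPM, a log2 fold change of −0.78 (adjusted p = 0.0127), the receptor Notch1 changed by −0.34 (adjusted p = 0.0425) and the co-activator Maml2 by −0.71 (SE 0.12, adjusted p = 0.00326). Dtx4, a ubiquitin ligase of the pathway, rose from 21.7, 16.5 and 20.3 CPM to 29.8, 28.98 and 40.7 CPM, a change of 0.76 (adjusted p = 0.00878), and Rfng, which glycosylates Notch, changed by 0.46 (adjusted p = 0.0437). Nrarp, a feedback inhibitor, had 3, 2 and 2 counts in NC and 11, 13 and 12 counts in siPdcd5 (adjusted p = 0.0338). The call of Maml2 alone of these 6 held in all 13 alternatives, and without siPdcd5 replicate 1 the list had 1 higher and 2 lower. Not called with 1 library left out were Jag1 (NC 2 or 3 or siPdcd5 3, adjusted p 0.0713), Notch1 (any, adjusted p 0.193), Dtx4 (NC 2, adjusted p 0.0615), Rfng (any, adjusted p 0.191) and Nrarp (any, adjusted p 0.158).

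Interferon-response genes were lower in a few members. Of 65 tested, 5 were lower and 0 higher by edgeR (7 and 0 by DESeq2, 14 with an unadjusted p under 0.05), with a median of −0.03 (−0.01 without siPdcd5 replicate 1). The paper's methods keep C22 cells with interferon-γ under permissive conditions before experiments and then move them to non-permissive conditions without it. Any part of this in the values was not tested. Gbp2, a guanylate-binding GTPase, was at 55.1, 58.6 and 58.2 CPM in NC and 31.1, 36.04 and 36.2 CPM in siPdcd5, a log2 fold change of −0.73 (SE 0.12, adjusted p = 0.00261). Oas1g, of the oligoadenylate synthetases that sense viral RNA, was at 2.36, 2.52 and 2.07 CPM and 0.664, 0.441 and 0.515 CPM, a change of −2.10 (SE 0.31, adjusted p = 0.00199). The call of Gbp2 held in all 13 alternatives and that of Oas1g in the 12 that could be fitted. Gbp3, Trim30a and Ifi27 changed by −0.72 (adjusted p = 0.0358), −0.60 (adjusted p = 0.0145) and −0.54 (adjusted p = 0.0215). Gbp and Oas1 genes have near copies in the genome and alignments to several places were counted, so the split between copies is uncertain. The list had 6 lower members without siPdcd5 replicate 1. Leaving out 1 library ended the call of Gbp3 (NC 2 or 3 or siPdcd5 2 or 3, adjusted p 0.186), Trim30a (NC 2 or 3 or siPdcd5 1 or 2, adjusted p 0.0689) and Ifi27 (NC 1, 2 or 3 or siPdcd5 2 or 3, adjusted p 0.0925).

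Other immune genes were called singly. Ccl2, a chemokine for monocytes, rose from 12.9, 12.8 and 10.97 CPM to 28.5, 25.2 and 22.8 CPM, a log2 fold change of 1.06 (SE 0.24, adjusted p = 0.0248), and Il6st, the signalling chain shared by receptors of the interleukin-6 family, fell from 69.7, 73.8 and 74.04 CPM to 51.5, 49.7 and 54.9 CPM, a change of −0.48 (adjusted p = 0.00847), the 2 called of 43 chemokines, cytokines and receptors. Tlr2, the one member called of 29 in NF-κB signalling, changed by −1.49 (adjusted p = 0.0134), and H2-DMb1, which with Calr made the 2 lower of 24 in antigen presentation, by −0.68 (adjusted p = 0.0259). In the complement list of 21, Serping1, the inhibitor that stops the first complement proteases, changed by −1.68 (SE 0.30, adjusted p = 0.00637). Cd55, which shields cells from complement, had 0, 0 and 1 counts in NC and 9, 32 and 14 counts in siPdcd5 (adjusted p = 0.00965). Summed leukocyte markers were 15.8 to 18.5 CPM in NC and 14.4 to 25.9 CPM in siPdcd5, ranges that overlap. Serping1 was called in the 12 alternatives that could be fitted. Calls that a single library ended were those of Ccl2 (any, adjusted p 0.126), Il6st (NC 2, adjusted p 0.0505), Tlr2 (NC 2 or siPdcd5 2, adjusted p 0.0646), H2-DMb1 (NC 1, 2 or 3 or siPdcd5 2 or 3, adjusted p 0.120) and Cd55 (NC 1 or 2, adjusted p 0.0624).

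Genes of retinoid and foreign-compound metabolism were lower in 2 members, and lysosomal genes were called in both directions. Aldh1a1, which makes retinoic acid and was the most abundant club cell marker, was at 555, 555 and 546 CPM in NC and 297, 292 and 326 CPM in siPdcd5, a log2 fold change of −0.86 (SE 0.08, adjusted p = 2.68e-05). Ahr, the aryl hydrocarbon receptor, was at 63.5, 62.04 and 53.7 CPM and 36.8, 37.6 and 39.7 CPM, a change of −0.65 (SE 0.11, adjusted p = 0.00336). They were the 2 lower of 23 tested genes of xenobiotic and retinoid metabolism, with 0 higher, also without siPdcd5 replicate 1, and both held in all 13 alternatives. Adh1, an alcohol and retinol dehydrogenase named after its value was seen, was at 8.59, 6.30 and 8.06 CPM and 1.03, 0.827 and 1.03 CPM, a change of −2.99 (SE 0.32, adjusted p = 1.42e-04). Of 34 lysosome and autophagy genes, Lamp2, of the lysosomal membrane, at 0.32 (adjusted p = 0.0356) and Hexa, a hexosaminidase, at 0.48 (adjusted p = 0.0338) were higher, and the autophagy genes Atg12 and Wipi1, at −0.39 (adjusted p = 0.0423) and −0.36 (adjusted p = 0.0377), were lower. None of these 4 was called without siPdcd5 replicate 1. The call was lost with 1 library left out for Lamp2 (any, adjusted p 0.162), Hexa (NC 1, 2 or 3 or siPdcd5 1, adjusted p 0.163), Atg12 (any, adjusted p 0.191) and Wipi1 (any, adjusted p 0.163). The lysosomal glycoproteins Creg1 and Gla, outside the list, moved further. Creg1 rose from 583, 511 and 578 CPM to 833, 1028 and 914 CPM, a change of 0.73 (SE 0.11, adjusted p = 0.00168), and Gla, α-galactosidase A, from 13.4, 12.7 and 12.7 CPM to 19.9, 25.6 and 21.1 CPM, a change of 0.78 (SE 0.12, adjusted p = 0.00234), and both held in all 13 alternatives.

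Single genes of iron handling were called. In the list of metal handling 1 was higher and 1 lower, 9.52% called beside 3.44% of all tested genes. Ftl1, the ferritin light chain that stores iron, rose from 1178, 1110.0 and 1121 CPM to 1648, 1325 and 1528 CPM, a log2 fold change of 0.40 (adjusted p = 0.0250). Slc40a1, the iron exporter ferroportin, changed by −0.49 (adjusted p = 0.0184), these being the 2 called of 21 in metal handling. Trf, transferrin, fell from 47.1, 42.6 and 43.04 CPM to 12.2, 15.7 and 16.9 CPM, a change of −1.56 (SE 0.19, adjusted p = 3.30e-04) called in all 13 alternatives, and it shares exon bases with Gm20425 on the same strand. In the NRF2 and glutathione list of 38, Ftl1 was the one member higher, and Sod3 and Gpx8, an extracellular superoxide dismutase and an ER peroxidase, were lower, at −0.40 and −0.42 (adjusted p = 0.00908 and 0.0449). Hk2, hexokinase 2, was the one called of 22 in glycolysis, at 0.67 (adjusted p = 0.00789), and Ero1l and P4ha1, an ER oxidase and a prolyl hydroxylase, the 2 called of 20 in the hypoxia list, at −0.47 (adjusted p = 0.00976) and −0.46 (adjusted p = 0.0338). The small heat shock protein Hspb1 changed by −0.67 (SE 0.11, adjusted p = 0.00261), alone of 24 cytosolic heat shock proteins and in all 13 alternatives. Gars, a tRNA synthetase, was the one called of 20 of its list, at −0.40 (adjusted p = 0.0169), and Eif3c, which has a near copy, the one of 38 translation factors, at −0.33 (adjusted p = 0.0333). Without siPdcd5 replicate 1, Ftl1, Gpx8 and Eif3c were not called (adjusted p = 0.0860, 0.128 and 0.0775). Single left-out libraries ended the calls of Ftl1 (NC 1, 2 or 3 or siPdcd5 1 or 3, adjusted p 0.121), Slc40a1 (NC 1 or 3 or siPdcd5 2 or 3, adjusted p 0.0976), Sod3 (NC 3, adjusted p 0.0516), Gpx8 (NC 1, 2 or 3 or siPdcd5 1 or 3, adjusted p 0.176) and Hk2 (NC 3, adjusted p 0.0504). Sensitive to 1 library were the calls of Ero1l (NC 1, adjusted p 0.0603), P4ha1 (NC 1, 2 or 3 or siPdcd5 2 or 3, adjusted p 0.153), Gars (NC 1 or 2, adjusted p 0.0862) and Eif3c (any, adjusted p 0.159).

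Epithelial and developmental regulators changed in a few members. Klf5, a zinc-finger factor of airway epithelium, fell from 88.1, 85.1 and 88.3 CPM to 42.2, 52.1 and 52.3 CPM, a log2 fold change of −0.83 (SE 0.13, adjusted p = 0.00234), and with Id2 made the 2 lower of 15 in the airway epithelial list. Sox9, of airway progenitors, rose from 14.7, 12.2 and 12.6 CPM to 23.9, 18.7 and 23.1 CPM, a change of 0.73 (adjusted p = 0.00971), the 1 higher there. Prrx1, a mesenchymal homeobox factor, changed by −0.71 (SE 0.12, adjusted p = 0.00414). Krt14, a basal cell keratin, was at 10.7, 9.86 and 11.9 CPM and 1.77, 4.24 and 4.50 CPM, a change of −1.60 (SE 0.22, adjusted p = 0.00144), the 1 called of 12 intermediate filament genes. Of 30 cadherin and junction genes, Pcdh17 and Pcdh19 were higher, at 0.51 (SE 0.08, adjusted p = 0.00224) and 0.39 (adjusted p = 0.0362), and Pcdh18, Pcdh7 and Ppl (periplakin) were lower, at −0.90 (SE 0.10, adjusted p = 1.71e-04), −0.68 (SE 0.11, adjusted p = 0.00274) and −0.54 (adjusted p = 0.00774). Hoxc6 was at 3.57, 3.63 and 5.06 CPM and 1.03, 1.05 and 1.67 CPM, a change of −1.70 (adjusted p = 0.0178), and Eya2, a co-activator and phosphatase, had 15, 27 and 29 counts and 2, 2 and 7 counts (adjusted p = 0.0184), the 2 lower of 33 homeobox and related factors, neither called without siPdcd5 replicate 1 (adjusted p = 0.0542 and 0.0583). The calls of Klf5, Prrx1, Krt14, Pcdh17, Pcdh18 and Pcdh7 held in all 13 alternatives. Not called with 1 library left out were Sox9 (NC 2 or 3 or siPdcd5 3, adjusted p 0.0639), Pcdh19 (any, adjusted p 0.157), Ppl (NC 2, adjusted p 0.0588), Hoxc6 (NC 2 or 3 or siPdcd5 1 or 2, adjusted p 0.0892) and Eya2 (NC 2 or 3 or siPdcd5 1 or 2, adjusted p 0.0857).

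Some cell-surface and secreted proteins of other kinds were called. S100a4, a calcium-binding protein and the most abundant gene called lower outside the matrix list, was at 6247, 5783 and 5853 CPM in NC and 3413, 3527 and 4178 CPM in siPdcd5, a log2 fold change of −0.69 (SE 0.11, adjusted p = 0.00224), with exon bases shared with Gm42674 on the same strand. Anxa3, annexin A3, changed by −0.42 (adjusted p = 0.0247). Prss23, a serine protease, was at 527, 578 and 596 CPM and 237, 396 and 288 CPM, a change of −0.88 (SE 0.16, adjusted p = 0.00558), and the serpin Serpini1 changed by −0.49 (adjusted p = 0.0358). Of receptors coupled to G proteins, 3 of 38 were lower: Lpar1, for lysophosphatidic acid, at −0.76 (SE 0.09, adjusted p = 4.84e-04), Gpr39 at −0.51 (adjusted p = 0.0178), and Cysltr1, for cysteinyl leukotrienes, at −2.26 (adjusted p = 0.00625). Of 47 channel and pump genes, Kcnab1, a potassium channel subunit, and Clca3a1 were lower, at −1.84 (SE 0.26, adjusted p = 0.00168) and −0.65 (SE 0.10, adjusted p = 0.00209). Cftr, the chloride channel of airway epithelium, had 25, 15 and 23 counts in NC and 0, 0 and 7 counts in siPdcd5 (adjusted p = 0.0216), and Trpv4, a calcium-permeable channel, 3, 6 and 5 and 25, 29 and 16 (adjusted p = 0.0424). Of 54 glycosylation and sulfation enzymes, Sulf1, which trims heparan sulfate, Has2, which makes hyaluronan, and Hs2st1 were lower, at −1.37 (SE 0.24, adjusted p = 0.00549), −0.88 (adjusted p = 0.0153) and −0.30 (adjusted p = 0.0482). Chsy1, which extends chondroitin sulfate, was higher at 0.37 (adjusted p = 0.0476), and Hs6st2 had 4, 3 and 0 counts and 24, 25 and 16 counts (adjusted p = 0.00971). S100a4, Prss23, Lpar1, Kcnab1, Clca3a1 and Sulf1 held in all 13 alternatives. Leaving out 1 library ended the call of Anxa3 (NC 1 or 2 or siPdcd5 1, 2 or 3, adjusted p 0.127), Serpini1 (NC 2 or 3 or siPdcd5 1, 2 or 3, adjusted p 0.159), Gpr39 (NC 1 or 2 or siPdcd5 1, adjusted p 0.0935), Cysltr1 (NC 2, adjusted p 0.0508) and Cftr (NC 1, 2 or 3 or siPdcd5 1 or 2, adjusted p 0.0862). Calls that a single library ended were those of Trpv4 (any, adjusted p 0.179), Has2 (NC 2 or 3 or siPdcd5 1, adjusted p 0.0793), Hs2st1 (any, adjusted p 0.213), Chsy1 (NC 1, 2 or 3 or siPdcd5 1 or 3, adjusted p 0.224) and Hs6st2 (NC 2, adjusted p 0.0505).

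Among noncoding RNAs, Neat1, the scaffold of paraspeckles, rose from 1993, 2143 and 2146 CPM to 3362, 2778 and 3105 CPM, a log2 fold change of 0.56 (adjusted p = 0.0169), and the snoRNA host Snhg3 changed by 0.58 (adjusted p = 0.0269) while Snhg18 changed by −0.48 (adjusted p = 0.0318), 3 called of 28. Neat1 was highest in siPdcd5 replicate 1 and was not called without it (adjusted p = 0.0549). The call was lost with 1 library left out for Neat1 (NC 1, 2 or 3 or siPdcd5 1 or 3, adjusted p 0.0857), Snhg3 (NC 2 or 3 or siPdcd5 1, adjusted p 0.149) and Snhg18 (NC 1, 2 or 3 or siPdcd5 1 or 2, adjusted p 0.147). The proliferin Prl2c2, a secreted protein of the prolactin family with near copies in the genome, rose from 5.40, 3.85 and 4.37 CPM to 12.8, 9.75 and 10.3 CPM, a change of 1.27 (SE 0.20, adjusted p = 0.00261), the 1 called of 3 tested, and was called in all 13 alternatives.

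The largest rises at a mean log2 CPM of at least 3, outside the matrix list, were in genes of varied function. Myo5c, a myosin that carries secretory vesicles in epithelia, rose from 5.55, 4.74 and 3.22 CPM to 19.2, 11.6 and 13.6 CPM, a log2 fold change of 1.71 (SE 0.23, adjusted p = 0.00119). Srcin1, an inhibitor of Src, rose from 15.2, 21.6 and 16.6 CPM to 40.1, 39.2 and 38.7 CPM, a change of 1.14 (SE 0.13, adjusted p = 2.61e-04), and Tmem158 from 36.2, 32.02 and 33.5 CPM to 76.8, 62.3 and 63.4 CPM, a change of 0.99 (SE 0.12, adjusted p = 2.81e-04). In all of these siPdcd5 replicate 1 was the highest of the 6, and the rule admitted only genes whose groups did not overlap. Cenpv and C430049B03Rik changed by 0.95 (SE 0.13, adjusted p = 0.00119) and 0.86 (SE 0.11, adjusted p = 6.30e-04), and 5730408K05Rik, which matched no annotated gene, by 1.30 (SE 0.18, adjusted p = 0.00152). Atg9b, at 0.96 (SE 0.14, adjusted p = 0.00186), shares exon bases with Nos3 on the other strand, which, named after its value was seen, was higher too at 0.75 (adjusted p = 0.00940), and the 2 cannot be told apart without strand. These calls held in all 13 alternatives, apart from that of Nos3, lost without NC replicate 3 (adjusted p up to 0.0593). Plekhg4, at 1.27 (adjusted p = 0.0307), had 35.7, 18.02 and 20.1 CPM in siPdcd5 against 9.80, 9.78 and 10.8 CPM in NC and was not called without siPdcd5 replicate 1 (adjusted p = 0.106). D630045J12Rik and 1810011O10Rik (Tcim) changed by 0.79 (adjusted p = 0.0197) and 0.76 (adjusted p = 0.0377). The splicing kinase Srpk2, among the 5 most abundant rises, changed by 0.35 (adjusted p = 0.0220), and Ung, a DNA repair glycosylase and the 1 called of 48 in that list, by 0.65 (adjusted p = 0.0278). Single left-out libraries ended the calls of Plekhg4 (NC 1, 2 or 3 or siPdcd5 1, adjusted p 0.131), D630045J12Rik (NC 1 or 3 or siPdcd5 2 or 3, adjusted p 0.102), 1810011O10Rik (any, adjusted p 0.162), Srpk2 (NC 1, 2 or 3 or siPdcd5 1 or 3, adjusted p 0.111) and Ung (NC 1, 2 or 3 or siPdcd5 1 or 3, adjusted p 0.130).

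The largest falls under the same rule included secreted and membrane proteins. Ptx3, a pentraxin of innate immunity, fell from 24.7, 32.5 and 23.3 CPM to 10.03, 10.7 and 10.1 CPM, a log2 fold change of −1.38 (SE 0.18, adjusted p = 7.32e-04). Ddit4l, an inhibitor of mTOR signalling, fell from 29.1, 25.9 and 22.3 CPM to 10.8, 10.4 and 10.2 CPM, a change of −1.30 (SE 0.14, adjusted p = 1.13e-04). Cemip, which breaks down hyaluronan, fell from 36.5, 51.1 and 46.8 CPM to 16.5, 23.6 and 20.8 CPM, a change of −1.14 (SE 0.15, adjusted p = 9.40e-04), and Lxn, a carboxypeptidase inhibitor, from 186, 186 and 177 CPM to 89.7, 84.1 and 87.5 CPM, a change of −1.07 (SE 0.09, adjusted p = 1.23e-05). The rule admitted only genes whose groups did not overlap, so the gap between groups here is not a further finding. Lxn lies against Gfm1 on the other strand with shared exon bases. Trdn, Fgd3 (an exchange factor for Cdc42), Dlg4 and Gm4070 changed by −1.26 (SE 0.21, adjusted p = 0.00344), −1.08 (SE 0.21, adjusted p = 0.00971), −1.04 (SE 0.19, adjusted p = 0.00749) and −1.03 (SE 0.15, adjusted p = 0.00199), the last a copy-rich interferon-inducible GTPase gene related to Gvin1. All of these calls held in all 13 alternatives. Cd34, Rcn3 and Fam84b changed by −1.27 (adjusted p = 0.00812), −1.09 (adjusted p = 0.0127) and −1.22 (adjusted p = 0.0184). Sensitive to 1 library were the calls of Cd34 (NC 2, adjusted p 0.0511), Rcn3 (NC 3, adjusted p 0.0595) and Fam84b (NC 1, 2 or 3 or siPdcd5 2 or 3, adjusted p 0.0689).

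Below that abundance, some genes named after their values were seen also passed the test. Plce1, a phospholipase C, rose from 2.43, 3.19 and 2.92 CPM to 8.85, 8.60 and 8.11 CPM, a log2 fold change of 1.58 (SE 0.20, adjusted p = 6.61e-04), and Mapt and Map2, which encode microtubule-associated proteins of neurons, changed by 1.33 (adjusted p = 0.0127) and 1.71 (adjusted p = 0.0133). Aim2, a sensor of cytosolic DNA, rose from 1.52, 0.371 and 0.614 CPM to 4.72, 5.40 and 3.99 CPM, a change of 2.49 (SE 0.36, adjusted p = 0.00169). Soga3 had 1, 5 and 2 counts in NC and 63, 105 and 74 counts in siPdcd5 (adjusted p = 3.34e-05). Bche, butyrylcholinesterase, was at 5.93, 5.26 and 5.99 CPM and 0.590, 1.32 and 0.193 CPM, a change of −2.96 (SE 0.43, adjusted p = 0.00168), and Papss2, which makes the donor for sulfation, at 10.9, 12.4 and 11.4 CPM and 2.80, 4.52 and 4.31 CPM, a change of −1.56 (SE 0.22, adjusted p = 0.00120). Apela, a ligand of the apelin receptor, had 24, 30 and 33 counts in NC and none in siPdcd5 (adjusted p = 4.84e-04). Of these, Mapt lost its call without NC replicate 3 or siPdcd5 replicate 2 and Map2 without NC replicate 1 or 3 (adjusted p up to 0.0689 and 0.0759).

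Lists of functions that PDCD5 is known for had 0 or 1 member called by edgeR with all libraries. In lists of this size that is near the 3.44% called of all tested genes, so no more is read from it. None of 40 tested BCL2 family and caspase genes was called by edgeR or DESeq2 (6 had an unadjusted p under 0.05), and of 43 p53 targets with Kat5, 1 was called, Perp, a membrane protein of apoptosis and desmosomes, at −0.59 (SE 0.09, adjusted p = 0.00227) and in all 13 alternatives (DESeq2 called 3 lower). None of 17 CCT chaperonin and prefoldin genes was called by either tool (1 with an unadjusted p under 0.05), Cct7 being at 0.004 (adjusted p = 0.990). None of 18 tubulin genes was called by edgeR (5 with an unadjusted p under 0.05), while DESeq2 called 2 higher, and Tubb5 was at 0.38 (adjusted p = 0.0533). Without siPdcd5 replicate 1, edgeR called 1 tubulin gene higher, Tubb5 (adjusted p = 0.0145), and with 1 library left out it called 0 to 2.

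Cell cycle lists each had 1 called member, a share of 1.45% to 3.12% beside 3.44% of all tested genes. Of 54 tested genes of DNA replication, 1 was lower, Rrm1 of ribonucleotide reductase, at −0.37 (adjusted p = 0.0191), while the list median was 0.14 and 44 lay above 0. Of 69 tested genes of mitosis, 1 was lower, Smc4 of condensin, at −0.45 (adjusted p = 0.00971), with a median of 0.09, and of 32 cyclin and G1 genes, 1 was lower, Ccnd2 (a D-type cyclin), from 841, 773 and 843 CPM to 545, 609.7 and 622 CPM, a change of −0.47 (adjusted p = 0.0169). None of these 3 lists had a member called higher by edgeR, and DESeq2 called 1 replication gene higher. Not called with 1 library left out were Rrm1 (NC 1, 2 or 3 or siPdcd5 1 or 3, adjusted p 0.0812), Smc4 (NC 2, adjusted p 0.0675) and Ccnd2 (NC 1 or 3, adjusted p 0.0756).

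In all, 21 of 69 lists had no called member. They held 793 tested genes, of which 81 (10.2%) had an unadjusted p under 0.05 against 15.7% of all tested genes, and DESeq2 called 2 higher and 12 lower. Without siPdcd5 replicate 1, edgeR called 1 gene higher among the tubulins, 1 lower in cholesterol synthesis and 0 in the other lists of these 21. The 82 cytosolic ribosomal proteins (median 0.08), 76 mitochondrial ribosomal proteins (0.06), 45 genes of ribosome biogenesis (0.05), 76 nuclear genes of oxidative phosphorylation (0.06), 20 of the citric acid cycle (0.06), 31 proteasome subunits and 53 splicing factors were among them. The most abundant members were Rplp1 at 0.06, Mrpl34 at 0.15, Ncl at −0.03, Atp5g3 at 0.27, Mdh2 at 0.13, Psmd4 at −0.05 and Srsf11 at −0.21. No member of these 7 lists was called by DESeq2 but 1 ribosome biogenesis and 1 mitochondrial ribosomal gene, both lower. Lipid lists were also without a call: cholesterol synthesis (24 tested, Cyp51 at −0.20, 3 lower by DESeq2), fatty acid synthesis (24, Scd2 at −0.21), fatty acid oxidation (32, Etfb at −0.08) and prostaglandins (12, Ptgis at −0.26). So were histones (22, H3f3b at −0.01), Hedgehog and cilium genes (43, Cdon at −0.30, 3 lower by DESeq2), immediate early genes (29, Jund at 0.13), clock genes (18, Tef at −0.09), nuclear receptors (24, Ncor1 at 0.003), chromatin modifiers (66, Hdac7 at −0.08) and RNA decay (44, Tnrc6a at −0.07). Mcl1, the most abundant of the BCL2 list, was at −0.17. Psmd4, Hdac7 and Tef changed sign without siPdcd5 replicate 1, to 0.08, 0.03 and 0.004, with no call. The value of Atp5g3 rested on that library, which stood at 1047 CPM. The other siPdcd5 libraries were at 642 and 674 CPM and the NC libraries at 672, 632 and 652 CPM. Without siPdcd5 replicate 1, Atp5g3 was at 0.009 (adjusted p = 0.992). A list without a call does not show that its genes were unaltered.

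**Figure D4:**
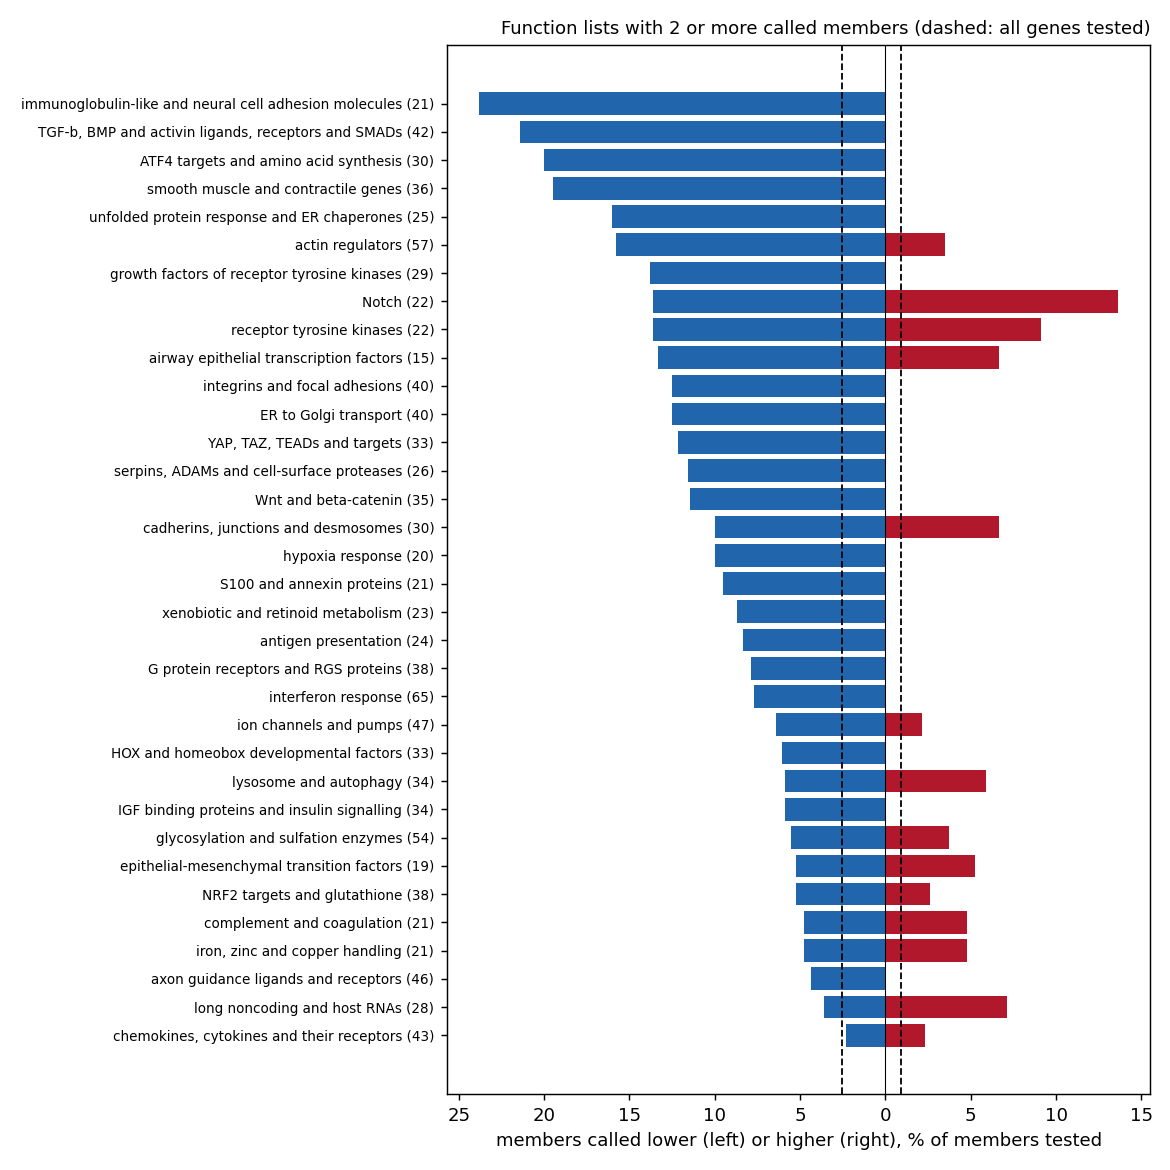
Share of tested members called lower (blue, left) and higher (red, right) in each function list with 2 or more called members, in % of the members tested, whose number stands in brackets. Dashed lines mark the 2.54% and 0.901% of all tested genes, and 5 of 21 immunoglobulin-like adhesion genes (23.8%), 9 of 42 TGF-β family genes (21.4%), 6 of 30 ATF4 targets (20%) and 7 of 36 contractile genes (19.4%) reach furthest to the left.

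The knockdown was also made in cells given TGF-β1, in libraries that share none with those above but share the estimate of the spread. There 192 of 12425 genes were called (1.55%), 41 higher (0.33%) and 151 lower (1.22%), and Pdcd5 changed by −1.49 (adjusted p = 5.48e-06). Outside the matrix list, 103 of the 109 genes called higher at rest and 270 of the 283 called lower, Pdcd5 included, kept their sign. Of all tested genes above and below 0, 58.6% and 67.7% did. With TGF-β1, 17 of the 109 and 86 of the 283 were called. The median log2 fold changes of the 109 rises were 0.69 without and 0.34 with TGF-β1, and those of the 283 falls −0.63 and −0.42. These genes were picked by their values in resting cells, so the 2 medians are a description and not a test. The test of the difference between the 2 effects called 0 genes by edgeR (638 had an unadjusted p under 0.05, and the smallest adjusted p was 0.213), and DESeq2 called 13.

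Genes that fell in both settings included Acta2, at −0.94 with TGF-β1 (adjusted p = 1.04e-04), Flrt3 at −2.63 (adjusted p = 5.67e-04), Slit2 at −1.38 (adjusted p = 5.67e-04), Aldh1l2 at −0.82 (adjusted p = 0.00145) and Trib3 at −0.67 (adjusted p = 0.00183). Among the ATF4 targets 7 of 30 were lower with TGF-β1, and among the TGF-β family genes 1 of 42, Ltbp4 at −0.98 (adjusted p = 0.00145). Other genes had values further apart, but no difference was called. Id2, lower in resting cells, was at 0.37 with TGF-β1 (adjusted p = 0.390, difference 0.406), Smad6 at 0.05 (difference 0.736), Vegfc at 0.07 (difference 0.346), Lxn at −0.30 (difference 0.213) and Tmem158 at 0.16 (difference 0.346), where the value in brackets after the word difference is the adjusted p of the interaction. Igf1 was lower in both, at −1.17 with TGF-β1 (adjusted p = 0.00104, difference 0.346).

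**Figure D5:**
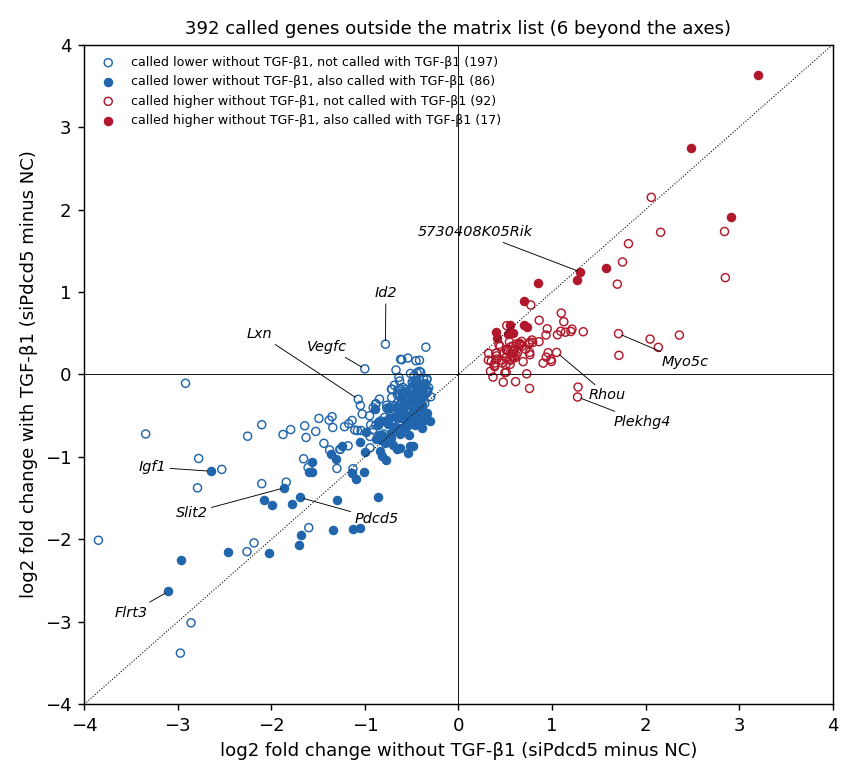
Log2 fold change of siPdcd5 against NC without TGF-β1 (x axis) and with TGF-β1 (y axis) for the 392 genes called without TGF-β1 outside the matrix list, Pdcd5 included. Filled points are genes also called with TGF-β1 and open points the others. The dotted line marks equal values, and most points lie between it and the x axis, on the same side of 0 in 103 of 109 rises and 270 of 283 falls.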

How the data were processed

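RNA of 12 C22 libraries was measured by a QuantSeq 3′ kit, which reads transcript ends. The authors deposited 1 table of read counts per gene symbol for each library, made with Bowtie2 and Bedtools from unique and multiple alignments. The submitters' processing notes name mm10 and edgeR, and the annotation and strand use are not given in the sources used here. Reads with several alignments and genes that share exon bases can therefore be counted under more than 1 symbol. The deposited counts were whole numbers without the quantile normalization that the methods name.

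Counts were fitted with edgeR 4.0.16 (R 4.3.3, limma 3.58.1) with TMM factors, filterByExpr and 1 mean per group over all 12 libraries, which share 1 estimate of the spread. The quasi-likelihood F-test compared siPdcd5 with NC without TGF-β1, the same with TGF-β1, and the difference of the 2, with Benjamini-Hochberg adjustment over 12425 genes and a threshold of 0.05. Standard errors are those of the log2 fold change. CPM used TMM-scaled library sizes. The script was tested on simulated data. Gene positions and overlaps came from GENCODE vM21 and promoters from RefSeq in GRCm38.p6.

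Named genes were the 15 largest rises and 15 largest falls outside the matrix list whose log2 CPM averaged 3 or more over the 6 libraries, the 5 most abundant called genes in each direction, and up to 6 called members of each function list. The largest changes and the most abundant genes also had to show no overlap between the 3 siPdcd5 and the 3 NC libraries. Pdcd5 and the most abundant member of a list without a call were named too, and others are marked where given. A gene that the rule selects is not reported here. The lists and tests were chosen with earlier results of these data known. Alternatives were upper-quartile factors, other count filters, quantile normalization with limma, DESeq2 1.42.0, only the libraries compared, a minimum log2 fold change of 1, a replicate block and leaving out each library. No sample column was left unused.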

Additional observations from a re-analysis of the deposited data

How the results depend on the processing

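Of 426 genes called besides Pdcd5, 147 were called in each of the 13 alternatives that could be fitted, a minimum log2 fold change of 1 not counted, and no called gene changed its direction. Psmd4, Hdac7 and Tef, not called, turned positive without siPdcd5 replicate 1 (0.08, 0.03 and 0.004). The alternatives gave 5751 values for 447 genes. Of these genes, 426 were called in the analysis reported, so most values could only keep or lose a call. Of the 5751 values, 1522 were past the threshold only in the analysis reported and 5 only in the alternative. That split follows from the choice of genes and does not compare the 2 ways. Pdcd5 was called in each of the 13, at −1.64 to −1.73. The 427 calls without TGF-β1 became 118 (32 higher, 86 lower) at a minimum log2 fold change of 1 and 670 (183 higher, 487 lower) with DESeq2, which had 424 of the 427. Leaving out 1 library gave 167 to 324 calls, 30 to 86 higher and 137 to 238 lower. The fewest came without NC replicate 2 (167), NC replicate 3 (206), siPdcd5 replicate 3 (210) and NC replicate 1 (236), of which 167, 204, 207 and 226 were among the 427. With TGF-β1, the 192 calls became 52 at a minimum log2 fold change of 1, 44 with only the libraries compared and 435 with DESeq2, and 73 to 322 with 1 library left out (322 without NC replicate 2 of the treated cells). The difference between the 2 effects had 13 calls with DESeq2 and 0 to 2 with 1 library left out, the 2 without the same treated NC replicate 2. Fitting only the libraries compared does not apply to that difference. The cause of these changes was not tested.

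Replicate numbers are not stated to pair the samples. Deviations from the group means of NC and siPdcd5 libraries with the same number correlated across genes at 0.02, −0.03 and 0.08. Those of the treated groups correlated at −0.04, −0.32 and −0.06. The mean for different numbers, −0.01 in NC and siPdcd5, is tied to these values by the centring on group means and is no separate comparison. With 3 numbers a group, these correlations cannot decide whether samples were paired. A fit with a replicate block called 301 genes without TGF-β1 (74 higher, 227 lower), 107 with it and 0 for the difference. The median log2 fold change of all tested genes moved from 0.02 to between 0.00 and 0.03 under the scalings, filters and left-out libraries. Counts of 3 or fewer in a library limit low genes, and counting error is only part of the spread.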
